A study of Mus musculus with 80 samples.

Results

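The genes described here mark the mural cells of brain vessels, which are the pericytes of capillaries and the smooth muscle cells of arteries and arterioles. They were chosen by name from the deposited tables, as *Pdgfrb*, *Rgs5*, *Kcnj8*, *Abcc9*, and *Vtn* for pericytes and *Acta2*, *Tagln*, and *Myh11* for smooth muscle. Of these 8 genes, 7 had a row in both tables, among 15919 genes in the sort comparison and 16000 in the cell preparation comparison. *Acta2* was not analysed here.

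Pericytes sit within the basement membrane of the capillary wall and are held there by PDGF-B from endothelial cells acting on their receptor PDGFRβ. Smooth muscle cells wrap the larger vessels in contractile layers and set vessel diameter. Neither cell type is a microglia, so in a study of microglial isolation their transcripts trace the share of each library that comes from the vessel wall. In bulk libraries, a change in the cells of a type, in their RNA per cell, or in the other cells of the library cannot be told apart.

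All libraries came from brains of Cx3cr1-NuTRAP mice, genotype Cx3cr1(Jung)-cre/Ert2+;NuTRAP+, males and females given tamoxifen (100 mg/kg) at about 3 months of age. Recombination in *Cx3cr1*-expressing cells tags their ribosomes with eGFP, so any *Cx3cr1*-expressing macrophage carries the tag as well as microglia. Input is the RNA of a homogenate before pull-down, and TRAP (translating ribosome affinity purification) is the RNA pulled down with the tagged ribosomes. The sort comparison held whole tissue homogenate (Tissue), an unsorted suspension from papain-based enzymatic and mechanical dissociation (Cell), and suspensions sorted with CD11b beads (autoMACS), with beads and then a cartridge-based sorter (autoMACS to Tyto), with the cartridge-based sorter alone (Tyto), or with a cytometer-based sorter (FACSAria). These had 4, 4, 4, 3, 5, and 4 mice per fraction. The cell preparation comparison held Tissue, a suspension made by cold mechanical dissociation alone (Dounce), and papain-based suspensions without or with transcription and translation inhibitors, with 4 mice per group. By their titles, Tissue and Cell of the sort comparison came from the same 4 mice, and the Tissue libraries of the cell preparation comparison carry the same 4 mouse numbers. They were therefore read as the same tissue sequenced again, and the Tissue groups of both comparisons were not taken as independent.

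Library depth ranged from 7129464 to 20168116 expected counts in the sort comparison and from 2471448 to 14650287 in the cell preparation comparison, with Dounce-TRAP lowest. Marker genes followed the labels. The summed level of 10 microglial markers rose from 239 to 363 CPM (read counts relative to library size after TMM scaling) in the Tissue-Input libraries to between 21720 and 39850 CPM in the sorted Input libraries. The summed level of 14 endothelial markers was 111 to 133 CPM in Tissue-Input, 1506 to 2707 CPM in Cell-Input, and 84.6 to 364 CPM in the sorted Input libraries, so markers of another vessel cell moved with the mural genes. The summed level of 10 fibroblast markers, a cell type that also expresses *Pdgfrb*, was 101 to 115 CPM in Tissue-Input, 247 to 358 CPM in Cell-Input, and 11.4 to 56.8 CPM in the sorted Input libraries. The part of endothelial cells and fibroblasts in the levels of single mural genes was not tested.

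The pericyte genes lie apart in the genome except for one pair. By the deposited coordinates on mm10, *Kcnj8* spans chr6:142564939-142571356 and *Abcc9* spans chr6:142587862-142702274, both on the minus strand and 16505 bases apart. *Kcnj8* encodes the pore subunit Kir6.1 and *Abcc9* the regulatory subunit SUR2 of the vascular ATP-sensitive potassium (KATP) channel, which relaxes mural cells when it opens. *Rgs5*, a regulator of G-protein signalling that is enriched in pericytes, lies at chr1:169655501-169693526 on the plus strand. *Vtn*, which encodes the secreted integrin ligand vitronectin, lies at chr11:78499120-78502325 on the plus strand. *Tagln*, which encodes the actin-binding protein transgelin, lies at chr9:45929628-45936058, and *Myh11*, the smooth muscle myosin heavy chain, at chr16:14194527-14291408, both on the minus strand. An antisense gene, Gm48529, covers 62.4% of the exon bases of *Tagln* on the opposite strand. The libraries were stranded and the reads were aligned with strand.

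Promoter sequences were taken for *Kcnj8* and *Abcc9*, as neighbours that code for one channel, and for *Rgs5*, whose level separated from the other genes in the Dounce preparation. Each run is 300 bases from the RefSeq annotation of GRCm38.p6 (mm10), from 250 bases before to 50 bases after the RefSeq start of the gene, written 5′ to 3′ on the strand of the gene. For *Abcc9* and *Rgs5* this start is the one of the span given above. For *Kcnj8* it lies 258 bases before the start of that span, so the *Kcnj8* window is wholly upstream of the span. Capitals mark a match to a searched motif on either strand.
Kcnj8, chr6:142571565-142571864: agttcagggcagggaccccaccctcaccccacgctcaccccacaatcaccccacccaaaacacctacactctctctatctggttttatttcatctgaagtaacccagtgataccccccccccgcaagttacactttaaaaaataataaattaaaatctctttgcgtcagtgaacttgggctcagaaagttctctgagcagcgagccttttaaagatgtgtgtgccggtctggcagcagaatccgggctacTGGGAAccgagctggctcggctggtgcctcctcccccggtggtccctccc
Abcc9, chr6:142702225-142702524: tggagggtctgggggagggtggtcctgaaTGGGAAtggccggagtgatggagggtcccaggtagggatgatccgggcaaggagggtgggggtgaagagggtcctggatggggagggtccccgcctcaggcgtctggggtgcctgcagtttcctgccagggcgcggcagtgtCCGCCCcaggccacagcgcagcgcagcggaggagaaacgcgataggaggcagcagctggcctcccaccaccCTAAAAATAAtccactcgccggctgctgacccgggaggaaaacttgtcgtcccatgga
Rgs5, chr1:169655251-169655550: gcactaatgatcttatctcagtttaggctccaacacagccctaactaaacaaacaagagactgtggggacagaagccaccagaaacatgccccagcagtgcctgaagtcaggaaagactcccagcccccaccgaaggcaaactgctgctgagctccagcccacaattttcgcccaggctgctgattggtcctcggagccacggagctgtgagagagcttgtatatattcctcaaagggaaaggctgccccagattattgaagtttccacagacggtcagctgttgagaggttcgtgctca
*Kcnj8* held the RBPJ core TGGGAA at bases 1 to 6 after the RefSeq start, and *Abcc9* held it at -221 to -216, in the same orientation. This core is found in 25.6% of the 32851 promoters of the same length. *Abcc9* also held a match to the MEF2 site from -8 to 2, a motif in 3.19% of promoters, and a GC box (GGGCGG) from -79 to -74 on the opposite strand, a motif in 35.7%. No letters matching the CArG box, the TATA box TATAAA, or the other motifs were in the *Rgs5* window. A match is a run of letters in this window and was not tested as a binding site.

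In whole tissue the mural genes were low, with *Vtn* the exception. Levels between genes were compared per kilobase of exon. In Tissue-Input of the sort comparison *Vtn* stood at 37.1 ± 0.91 CPM per kilobase (SD, n = 4), and the next genes were *Pdgfrb* at 1.80 ± 0.32, *Tagln* at 1.68 ± 0.32, *Rgs5* at 1.35 ± 0.17, and *Kcnj8* at 1.12 ± 0.30. Each of these last 4 differed from its neighbour in the order by less than their summed SDs. *Abcc9* at 0.31 ± 0.07 CPM per kilobase and *Myh11* at 0.21 ± 0.03 were lowest, and also lay within their summed SDs. In Cell-Input the order per kilobase began with *Vtn* at 98.6 ± 19.7 and *Rgs5* at 21.4 ± 3.46 (SD, n = 4), and *Rgs5* had moved above *Tagln* (10.6 ± 3.09) and *Pdgfrb* (8.38 ± 1.42), which did not differ beyond their spread.

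The first comparison asked what enzymatic dissociation does to the cellular makeup of the suspension, before any sort. All 7 mural genes were called higher in Cell-Input than in Tissue-Input. Of all 15750 genes tested, 28.5% were called higher. Genes counted as called had a fold change above 2 and a Benjamini-Hochberg adjusted p under 0.1 by edgeR's quasi-likelihood test. The 7 genes had a median log2 fold change of 2.75, against 0.17 for all genes.

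*Rgs5* and *Myh11* had the highest log2 fold changes of the 7, and these differed from each other by less than their SEs. The CPM of *Rgs5* was 5.56, 5.93, 7.28, and 5.83 in the Tissue-Input libraries of replicates 1 to 4, and 88.0, 100.4, 118, and 82.5 in Cell-Input. Every Cell-Input library lay far above every Tissue-Input library, and the log2 fold change was 4.08 ± 0.42 (SE, adjusted p = 9.37e-09). *Pdgfrb* was counted at 7.83 to 11.6 CPM in Tissue-Input and at 38.4 to 56.5 CPM in Cell-Input, a log2 fold change of 2.32 ± 0.36. Both KATP subunits rose, *Kcnj8* from 2.04 to 3.87 CPM up to 10.6 to 16.4 CPM (log2 fold change 2.28 ± 0.53) and *Abcc9* from 2.09 to 3.31 CPM up to 14.5 to 24.8 CPM (log2 fold change 3.13 ± 0.43). *Vtn* rose as well, from between 73.3 and 77.7 CPM to between 171 and 259 CPM, with a log2 fold change of 1.51 ± 0.30 (adjusted p = 0.000125).

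The smooth muscle genes rose in the same libraries. *Myh11* was counted at 1.80, 1.35, 1.76, and 1.48 CPM in Tissue-Input and at 19.3, 17.8, 29.0, and 27.8 CPM in Cell-Input (log2 fold change 3.97 ± 0.47). *Tagln* was counted at 2.73 to 4.20 CPM in Tissue-Input and at 14.8 to 26.9 CPM in Cell-Input (log2 fold change 2.75 ± 0.32). For both genes replicates 3 and 4 of Cell-Input lay above replicates 1 and 2.

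Other genes of the vessel wall moved the same way. Of 14 other pericyte genes 13 were called higher, led by the peptidase gene *Enpep* (log2 fold change 3.16 ± 0.46) and the receptor gene *P2ry14* (2.79 ± 0.38). Of 13 other smooth muscle genes tested 10 were called higher, with *Aoc3*, an amine oxidase of the vessel wall, at 3.39 ± 0.58. Of 14 genes for vessel signalling partners 13 were called higher, among them the endothelial angiopoietin receptor *Tek* (4.89 ± 0.45) and the vasoconstrictor gene *Edn1* (4.00 ± 0.37). All 14 endothelial markers were called higher, with a median log2 fold change of 4.47. The KATP subunits of neurons and endocrine cells fell, with log2 fold changes of -3.01 for *Kcnj11* and -3.55 for *Abcc8*.

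**Figure D1:**
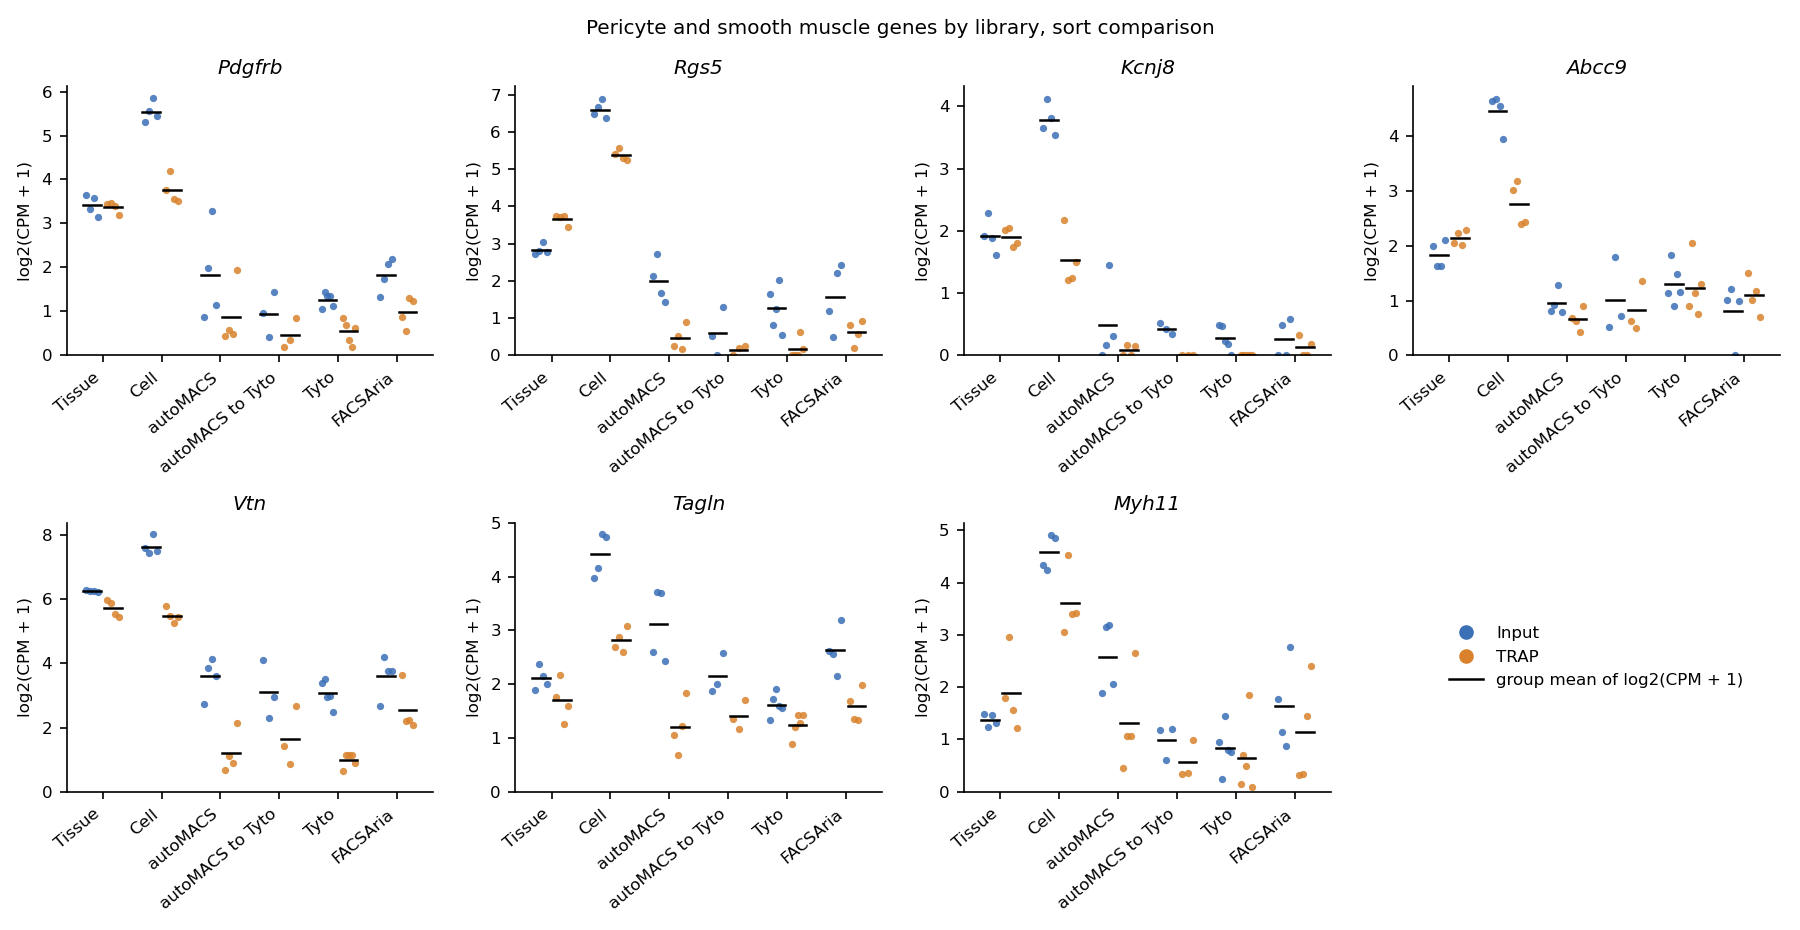
Level of the 7 mural genes in every library of the sort comparison, as log2(CPM + 1) on the vertical axis, by preparation. Blue points are Input libraries, orange points are TRAP libraries, and black lines are group means. Every gene peaks in Cell-Input, where *Rgs5* lies between 82.5 and 118 CPM, and every sorted group lies below it.

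The next comparisons asked how far each sort removed cells other than microglia. All 7 genes were called lower than in Cell-Input in each of the 4 sorts. The shares of all genes called lower were 33.4% in autoMACS, 33.7% in autoMACS to Tyto, 34.7% in Tyto, and 34% in FACSAria. The median over the 7 genes was -4.37 for autoMACS, -4.75 for autoMACS to Tyto, -5.01 for Tyto alone, and -4.32 for FACSAria (log2), against medians between -0.06 and -0.11 for all genes. With DESeq2's size factors the all-gene medians were -0.27 to -0.31. These comparisons share the Cell-Input libraries. By their titles, the sorted libraries came from other mice than Cell, so mouse and sort cannot be told apart here. Of all called genes 35.2% were higher in autoMACS and 33.4% in autoMACS to Tyto, and 24.9% and 23.1% with limma-trend on the deposited log2 values.

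*Rgs5* had its lowest fitted value in autoMACS to Tyto-Input, where its libraries held 4, 0, and 11 counts (0.424, 0, and 1.44 CPM). Relative to Cell-Input it changed by -7.69 ± 0.67 (log2, SE) there, by -6.15 ± 0.45 in Tyto, by -5.52 ± 0.48 in FACSAria, and by -5.06 ± 0.46 in autoMACS. In autoMACS-Input it stood at 3.40, 5.64, 2.17, and 1.71 CPM. With TMM scaling only replicate 2 reached the range of Tissue-Input, and without it no replicate did. For *Pdgfrb* (chr18:61045150-61085067, plus strand) the log2 fold change was -4.14 after autoMACS, -5.82 after autoMACS to Tyto, -5.28 after Tyto alone, and -4.32 after FACSAria. In autoMACS-Input, replicate 3 carried 8.70 CPM of *Pdgfrb* and the other replicates 0.832 to 2.94 CPM.

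The channel genes left few reads. *Kcnj8* was counted 0 to 6 times in the Input libraries of autoMACS to Tyto, Tyto, and FACSAria, with 0 counts in 1 Tyto-Input and 2 FACSAria-Input libraries. Its log2 fold changes ran from -5.24 for autoMACS to -6.09 for Tyto. Replicate 3 of autoMACS-Input held 12 counts of *Kcnj8* (1.74 CPM) and the other replicates 0 to 2. For *Abcc9* these 4 sorts gave -4.79, -4.30, -4.06, and -4.93, and for *Vtn* -4.37, -4.70, -4.97, and -4.28 (log2, sorts ordered as for *Pdgfrb*). *Vtn* still stood at 4.55 to 10.4 CPM in Tyto-Input and at 5.67 to 16.7 CPM in autoMACS-Input.

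The smooth muscle genes had the smallest falls of the 7 in autoMACS-Input and in FACSAria-Input, which was not tested against the pericyte genes. In autoMACS to Tyto-Input and Tyto-Input only *Tagln* had a smaller fall than every pericyte gene. *Tagln* was counted in autoMACS-Input at 5.07, 12.1, 12.0, and 4.40 CPM, against 2.73 to 4.20 CPM in Tissue-Input. TMM factors were 0.913 to 0.968 in autoMACS-Input and 1.31 to 1.33 in Tissue-Input. Without this scaling the lowest *Tagln* libraries of autoMACS-Input lay inside the Tissue-Input range. *Myh11* was counted there at 2.72, 7.93, 8.12, and 3.18 CPM, against 1.35 to 1.80 CPM in Tissue-Input. Replicates 2 and 3 were high for both genes. Relative to Cell-Input, *Tagln* changed by -1.60 ± 0.30 (log2, SE) in autoMACS, -2.80 ± 0.37 in autoMACS to Tyto, -3.58 ± 0.31 in Tyto, and -2.19 ± 0.32 in FACSAria. For *Myh11* the values were -2.37 ± 0.44, -4.75 ± 0.60, -5.01 ± 0.48, and -3.43 ± 0.47. In FACSAria-Input replicate 4 was highest for both, at 8.15 CPM of *Tagln* and 5.76 CPM of *Myh11*.

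The sorts were then compared with one another by an F test across the 4 sorted Input groups, which called 7.42% of all genes. Of the 7 mural genes 4 were called. *Tagln* had a largest log2 difference between 2 sorts of 1.98 (adjusted p = 0.00205, edgeR) and *Myh11* of 2.63 (adjusted p = 0.00372). *Pdgfrb* (1.68, adjusted p = 0.0945) and *Rgs5* (2.64, adjusted p = 0.0844) lay close to the threshold, and with only the 4 sorted groups in the fit the adjusted p was 0.226 and 0.291. *Kcnj8* (adjusted p = 0.826), *Abcc9* (0.508), and *Vtn* (0.371) were not called. With 1 library left out at a time, *Tagln* and *Myh11* were called in all 16 fits. The *Pdgfrb* call was lost in 11 of these fits and with limma (adjusted p = 0.167), and the *Rgs5* call in 6. Without replicate 2 of autoMACS-Input, replicate 2 of autoMACS to Tyto-Input, or replicate 2 or 3 of Tyto-Input, only *Tagln* and *Myh11* were called. Without replicate 1 of autoMACS to Tyto-Input, *Pdgfrb* (adjusted p = 0.145) and *Rgs5* (0.17) were lost and *Vtn* was called (1.19, adjusted p = 0.096). Libraries of different sorts came in part from the same mice, and the test treats them as independent.

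Of the other vessel genes, 14 of 14 pericyte genes were called lower in each sort, and 11, 12, 13, and 11 of 13 smooth muscle genes in autoMACS, autoMACS to Tyto, Tyto, and FACSAria. *Notch3*, the receptor that maintains mural cells, had log2 fold changes of -4.41 in autoMACS-Input and -6.10 in Tyto-Input. The F test across the sorts called 8 of 13 other smooth muscle genes, 5 of 14 other pericyte genes, and 10 of 14 endothelial markers. Of the 14 signalling partners 9 were called lower and 3 higher in each sort.

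**Figure D2:**
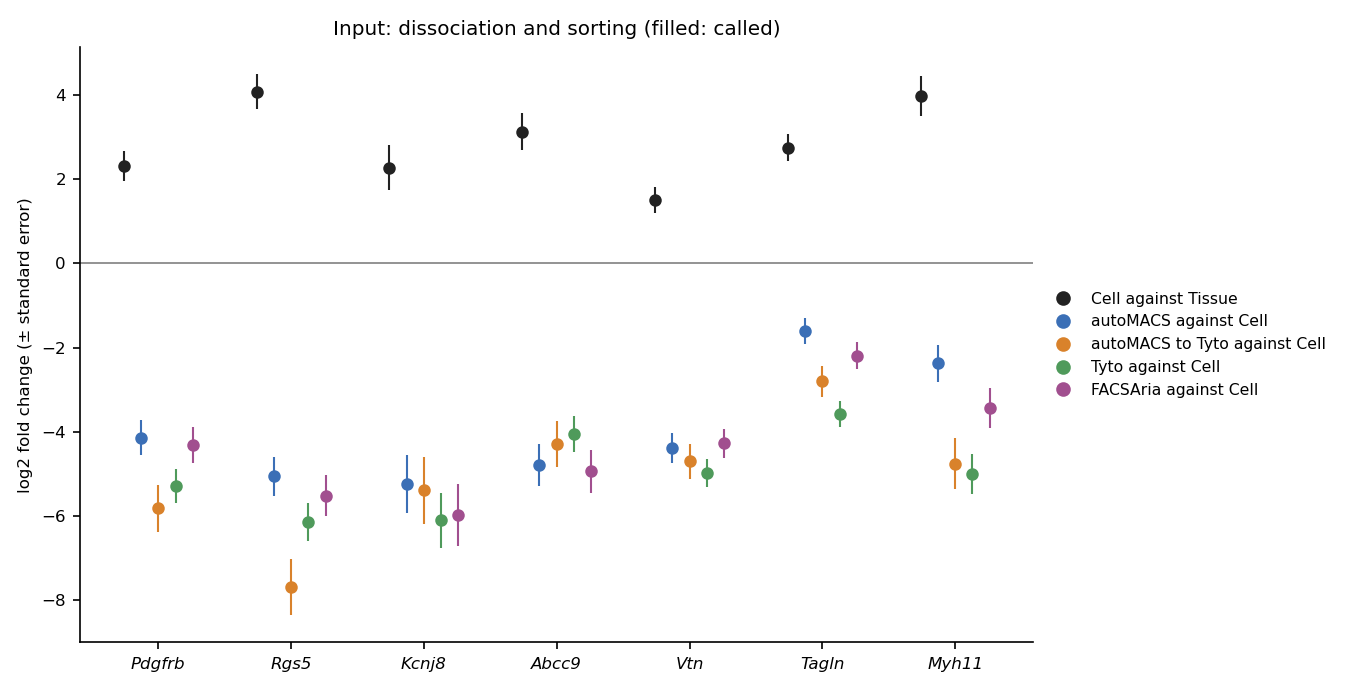
Log2 fold change of each mural gene between Input groups of the sort comparison, with the standard error as bars and filled points for called genes. The Cell against Tissue values lie above 0, from 1.51 for *Vtn* to 4.08 for *Rgs5*, and the values of the 4 sorts against Cell lie below 0, with *Tagln* nearest to 0 at -1.60 for autoMACS.

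In the translatome, dissociation left a smaller trace. Of the 7 genes 3 were called higher in Cell-TRAP than in Tissue-TRAP, where 25.1% of all genes were. Among all called genes 46.2% were higher, and 35% when libraries were scaled by DESeq2's size factors. *Rgs5* was counted at 12.5, 12.2, 12.4, and 9.99 CPM in Tissue-TRAP and at 41.3, 46.3, 38.8, and 37.4 CPM in Cell-TRAP (log2 fold change 1.81 ± 0.29, adjusted p = 3.88e-06). *Tagln* went from 1.39 to 3.51 CPM up to 5.10 to 7.50 CPM (log2 fold change 1.40 ± 0.35). The groups did not overlap for either gene. *Myh11* had a log2 fold change of 1.97 ± 0.77 (adjusted p = 0.0219), and replicate 2 stood apart in both groups, at 6.77 CPM in Tissue-TRAP and 22.1 CPM in Cell-TRAP. This call was lost with the DESeq2 Wald test (adjusted p = 0.107) and with limma (adjusted p = 0.136). *Pdgfrb* (0.44 ± 0.41), *Kcnj8* (-0.44 ± 0.47), *Abcc9* (0.80 ± 0.39), and *Vtn* (-0.22 ± 0.33) were not called.

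After a sort, few reads of any mural gene were left in TRAP. All 7 were called lower in the mean of the 4 sorted TRAP groups (Sort-TRAP) than in Cell-TRAP, where 23.6% of all genes were. Sorted and Cell libraries came from different mice in TRAP too, so mouse and sort cannot be told apart. *Rgs5* stood at 0 to 0.89 CPM in the 16 sorted TRAP libraries, against 37.4 to 46.3 CPM in Cell-TRAP. In autoMACS to Tyto-TRAP it had at most 2 counts in any library, so no fold is given. *Kcnj8* had 0 counts in all 5 Tyto-TRAP and all 3 autoMACS to Tyto-TRAP libraries and at most 3 in any other sorted TRAP library, and it has no fold for the same reason. In Cell-TRAP it had 16 to 48 counts. *Vtn* fell by 4.41, *Pdgfrb* by 4.27, *Myh11* by 3.56, *Abcc9* by 2.67, and *Tagln* by 1.94 on the log2 scale. *Abcc9* kept 6 to 41 counts and *Tagln* 10 to 48 counts in every sorted TRAP library. In autoMACS-TRAP replicate 4 was highest for *Pdgfrb*, *Rgs5*, *Abcc9*, *Vtn*, *Tagln*, and *Myh11*. Of the other genes tested, 12 of 13 for pericytes and 8 of 9 for smooth muscle were called lower.

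The pull-down was compared with its own Input to ask what the ribosome tag selects. In Tissue, none of the 7 genes was called, where 11.1% of all genes were. At an unadjusted p under 0.05 there was 1 gene, *Rgs5*, which stood at 5.56 to 7.28 CPM in Tissue-Input and at 9.99 to 12.5 CPM in Tissue-TRAP, without overlap. Its log2 fold change was 0.94 ± 0.36 (adjusted p = 0.0489), just under the fold threshold. The DESeq2 Wald test and limma also called none of the 7. Of all called genes 83.1% were higher, and 70.3% with limma. *Vtn*, *Tagln*, *Pdgfrb*, and *Kcnj8* had log2 fold changes between -0.53 and -0.05, and *Abcc9* of 0.40 ± 0.42. *Myh11* had 0.96 ± 0.69, with replicate 2 of Tissue-TRAP at 6.77 CPM and the others at 1.34 to 2.45 CPM.

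In Cell, 6 of the 7 genes were called lower in TRAP than in Input, where 30.9% of all genes were. Among all called genes 35.2% were higher, and 21% with DESeq2's size factors. *Kcnj8* fell by 2.69 ± 0.55, *Vtn* by 2.18 ± 0.34, *Pdgfrb* by 1.86 ± 0.40, *Abcc9* by 1.85 ± 0.41, *Tagln* by 1.79 ± 0.32, and *Rgs5* by 1.25 ± 0.34 on the log2 scale (SE). *Myh11* had a log2 fold change of -0.95 ± 0.62 (adjusted p = 0.162). It passed both thresholds with DESeq2's size factors (-1.37), and in a paired fit of these groups with the mouse as a replicate block (-1.04, adjusted p = 0.00314), while the same groups without the block gave -0.97 (adjusted p = 0.0128). Without replicate 2, the highest Cell-TRAP library at 22.1 CPM, it was -1.53 (adjusted p = 0.0637).

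The difference between these pull-downs was tested as an interaction. The log2 change from Input to TRAP was lower in Cell than in Tissue for all 7 genes, where 29.5% of all genes were called lower and the median of all genes was -0.29 (-0.61 with DESeq2's size factors). Of all called genes 16.3% were higher, and 5.23% with DESeq2's size factors. The interaction was -2.63 ± 0.76 for *Kcnj8*, -2.25 ± 0.58 for *Abcc9*, -2.19 ± 0.50 for *Rgs5*, -1.79 ± 0.56 for *Pdgfrb*, -1.65 ± 0.47 for *Vtn*, and -1.26 ± 0.46 for *Tagln*. For *Myh11* it was -1.91 ± 0.93 (adjusted p = 0.0764). This last call was lost with limma (adjusted p = 0.131) and without replicate 2 of Tissue (-1.33, adjusted p = 0.269) or replicate 1, 3, or 4 of Cell. Of the other genes, 8 of 14 for pericytes, 7 of 13 for smooth muscle, and 13 of 14 endothelial markers were called lower in this test, with medians of -1.72, -1.48, and -1.92.

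Over the 4 sorts, 5 of the 7 genes were called lower in TRAP than in Input, where 18.8% of all genes were, although little was left in Input. *Vtn* fell by 2.21 ± 0.23, *Pdgfrb* by 1.45 ± 0.32, and *Tagln* by 1.40 ± 0.18 on the log2 scale. *Rgs5* and *Kcnj8* were called lower and have no fold, because every autoMACS to Tyto-TRAP library held at most 2 counts of *Rgs5* and every sorted TRAP library at most 3 of *Kcnj8*. *Abcc9* had -0.21 ± 0.27 (adjusted p = 0.543), with 0.348 to 3.16 CPM in the sorted TRAP libraries and 0 to 2.57 CPM in the sorted Input libraries. *Myh11* had -0.84 ± 0.43 (adjusted p = 0.092), and in a fit of the sorted groups alone its log2 fold change was -1.08 (adjusted p = 0.0307) with the replicate block and -0.75 (adjusted p = 0.158) without it.

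Among the signalling partners of mural cells, 5 of 14 were called higher in Tissue-TRAP than in Tissue-Input and none lower, where 9.23% of all genes were called higher. These were led by *Itgb5* (log2 fold change 3.57 ± 0.11) and *Itgb3* (2.19 ± 0.19), which encode integrin subunits that can bind vitronectin. Both genes were higher still in the sorted TRAP libraries, as were the microglial markers. *Itgb5* stood at 66.1 to 78.4 CPM in Tissue-Input, 657 to 987 CPM in Tissue-TRAP, and 3108 to 4006 CPM in the sorted TRAP libraries. *Itgb3* stood at 1.85 to 4.20, 11.6 to 17.5, and 145 to 258 CPM in the same groups. The summed level of the 14 partners was 229 to 246 CPM in Tissue-Input, 823 to 1196 CPM in Tissue-TRAP, and 4144 to 4900 CPM in the sorted TRAP libraries. Most of this sum in Tissue-TRAP and sorted TRAP was *Itgb5* alone. The part of microglia in these values was not tested. Of the 14 endothelial markers 9 were called higher in Tissue-TRAP, with a median of 1.16 (log2). Of 14 other pericyte genes 2 were called, both lower, *Slc6a20a* (-1.59 ± 0.50) and *Cspg4* (-1.50 ± 0.58), and of 13 other smooth muscle genes none was called.

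**Figure D3:**
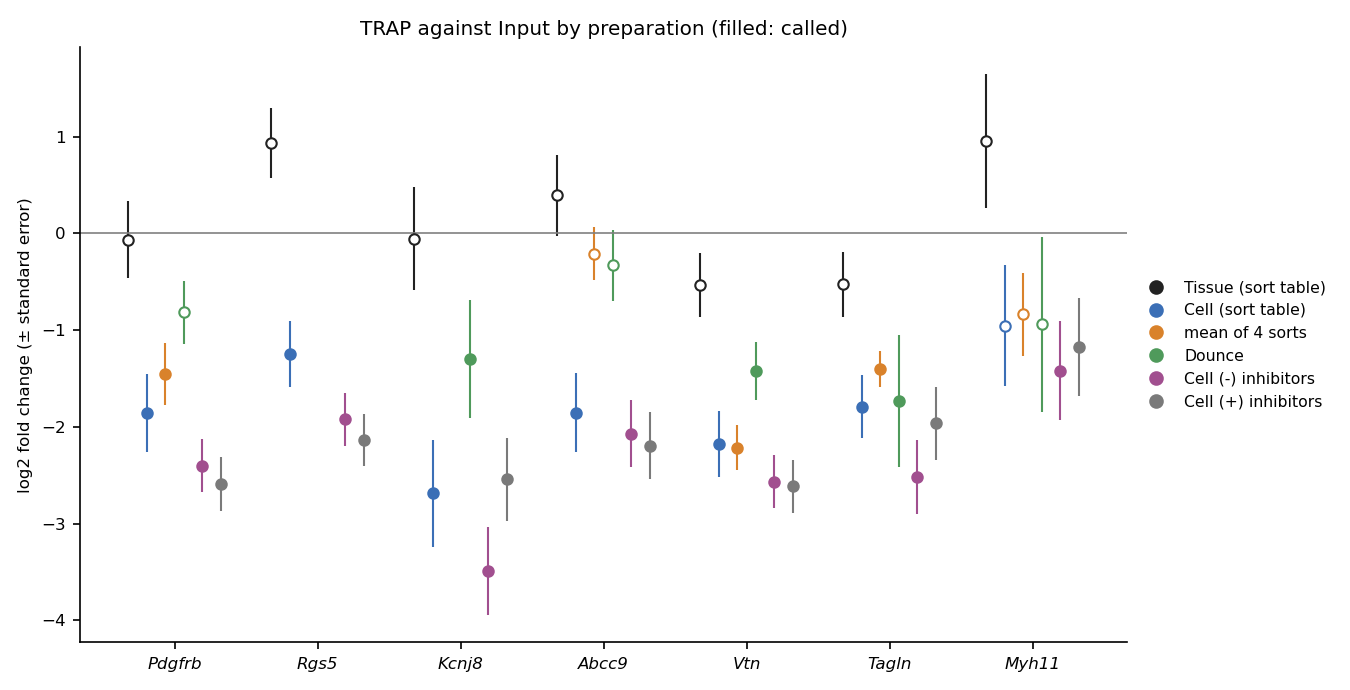
Log2 fold change of TRAP against Input of each mural gene by preparation, with the standard error as bars and filled points for called genes. In Tissue (black) the values lie from -0.53 to 0.96 with none called, and in Cell (blue) 6 of 7 are called lower, down to -2.69 for *Kcnj8*. Values with a group at 3 counts or fewer in every library are left out.

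The cell preparation comparison asked which way of making a suspension keeps the tissue's makeup. Without inhibitors, all 7 mural genes were again called higher in the papain-based suspension than in Tissue-Input, where 25.6% of all genes were. CPM is a share of a library and not an amount per brain. The study reported less RNA and a smaller neuronal part in papain-based suspensions than in tissue. The part of these differences in the values was not tested. The suspensions came from 4 other mice than the tissue, so mouse and preparation cannot be told apart here, and the same holds for Dounce. *Rgs5* stood at 7.11, 6.51, 6.18, and 8.62 CPM in Tissue-Input and at 62.9, 57.6, 62.9, and 60.2 CPM in the suspension (log2 fold change 2.96 ± 0.26). *Myh11* rose by 3.19 ± 0.48, *Tagln* by 3.09 ± 0.37, *Pdgfrb* by 2.31 ± 0.20, *Kcnj8* by 1.73 ± 0.25, *Abcc9* by 1.45 ± 0.28, and *Vtn* by 1.28 ± 0.11 on the log2 scale. Replicate 3 held 47.7 CPM of *Tagln* and 52.8 CPM of *Myh11*, and the other replicates at most 25.6 and 18.5 CPM. Of the other genes 13 of 14 for pericytes and 8 of 11 for smooth muscle were called higher.

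Inhibitors did not change any of the 7 genes past the thresholds. In Input 0.311% of all genes were called and in TRAP 0.638%. *Rgs5* with inhibitors stood at 48.6, 61.9, 133.8, and 112.6 CPM in Input, so 2 of 4 libraries lay above every library without inhibitors. Its log2 fold change was 0.55 ± 0.23 (adjusted p = 1). The other 6 genes had log2 fold changes from -0.19 to 0.25 in Input, and at an unadjusted p under 0.05 there were 2 of the 7 genes, *Rgs5* and *Vtn* (0.25 ± 0.11). In TRAP the values ran from -0.17 for *Pdgfrb* to 1.10 ± 0.64 for *Kcnj8*. DESeq2 and limma called none either.

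**Figure D4:**
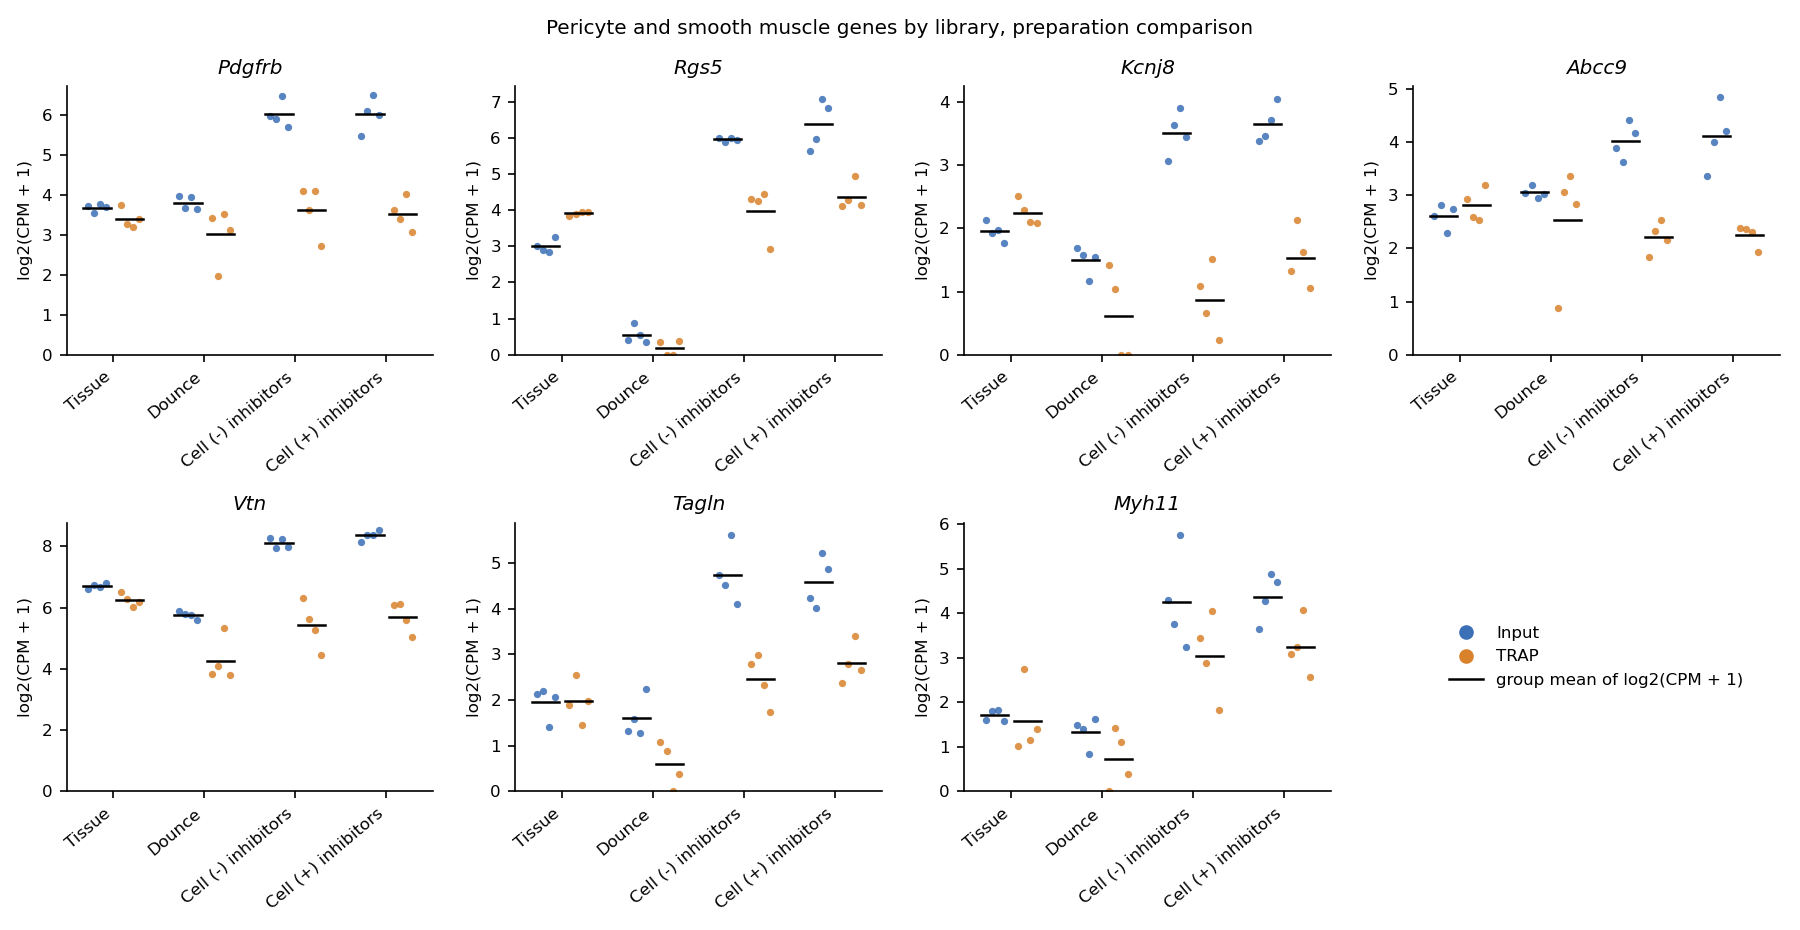
Level of the 7 mural genes in every library of the cell preparation comparison, as log2(CPM + 1) on the vertical axis. Blue points are Input libraries, orange points are TRAP libraries, and black lines are group means. *Rgs5* lies between 0.276 and 0.829 CPM in Dounce-Input, below all 4 Tissue-Input libraries, while *Pdgfrb* lies at 11.6 to 14.7 CPM, next to Tissue-Input at 10.8 to 12.6 CPM.

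Cold mechanical dissociation was compared with tissue next. The study's own quality control found the lowest RNA integrity in Dounce-Input. It also found read coverage weighted more to the 3′ end of genes in Tissue-Input and Dounce-Input than in the papain-based suspensions. Dounce samples were cleared on a Percoll gradient and needed a whole brain, unlike the papain-based suspensions. The part of these differences in the values of these genes was not tested. Only *Rgs5* was called lower in Dounce-Input than in Tissue-Input, 1 of the 7 genes, where 21.4% of all genes were called lower and 28.7% higher. It was counted 4, 10, 3, and 2 times in Dounce-Input (0.330, 0.829, 0.469, and 0.276 CPM) and 58 to 82 times in Tissue-Input. The highest Dounce-Input library lay well below the lowest Tissue-Input library, and the log2 fold change was -3.59 ± 0.43 (adjusted p = 3.86e-07). *Vtn* had -0.76 ± 0.11 (adjusted p = 4.6e-06), with at most 57.5 CPM in Dounce-Input and 95.4 to 110 CPM in Tissue-Input. The groups did not overlap, but the fold was under the threshold.

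The other pericyte genes of the 7 kept close to the tissue level. *Pdgfrb* stood at 14.7, 11.7, 14.4, and 11.6 CPM in Dounce-Input (log2 fold change 0.35 ± 0.20, adjusted p = 0.13). *Abcc9* stood at 6.72 to 8.21 CPM against 3.92 to 6.06 CPM in Tissue-Input, without overlap (0.71 ± 0.28, adjusted p = 0.0301). *Kcnj8* stood at 1.25 to 2.23 CPM against 2.42 to 3.37 CPM (-0.40 ± 0.28, adjusted p = 0.207). These *Kcnj8* ranges overlap without TMM scaling, whose factors were 1.236 to 1.253 in Dounce-Input and 1.027 to 1.035 in Tissue-Input. *Tagln* (-0.27 ± 0.44) and *Myh11* (-0.27 ± 0.57) were not called.

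Other mural genes also lay on both sides in Dounce-Input, as all genes did. Of 14 other pericyte genes 5 were called lower and 3 higher, beside 21.4% and 28.7% of all genes. *Higd1b*, a mitochondrial hypoxia-response family member found in pericytes, had at most 2 counts in any Dounce-Input library and 10 to 17 in Tissue-Input, and no fold is given. *Ndufa4l2* fell by 2.18 ± 0.39, *Slc6a20a* by 1.92 ± 0.30, *Cox4i2* by 1.83 ± 0.57, and *Anpep* by 1.27 ± 0.35 on the log2 scale. *Tbx18*, a transcription factor of mural cells, rose by 4.54 ± 0.41, from 1.64 ± 0.54 CPM in Tissue-Input to 33.5 ± 9.28 CPM in Dounce-Input (SD, n = 4). *Mcam* rose by 2.37 ± 0.16 and *Atp13a5* by 1.50 ± 0.30. Of these genes *Higd1b* and *Tbx18* were named by rule, and the others were named after their values were seen, to complete the counts.

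Of 11 other smooth muscle genes tested 3 were called lower and 3 higher in Dounce-Input, again beside 21.4% and 28.7% of all genes. *Tpm2*, a tropomyosin, fell by 2.77 ± 0.38 and *Pln*, the regulator of the calcium pump SERCA, rose by 3.99 ± 0.50 on the log2 scale. The rest of the called genes were *Synpo2* (-2.07 ± 0.28), *Myl9* (-1.72 ± 0.26), *Aoc3* (1.17 ± 0.42), and *Cald1* (1.08 ± 0.13), again named after their values were seen. Of 14 endothelial markers 8 were called lower and none higher, and their summed level was 58.6 to 67.9 CPM in Dounce-Input against 155 to 166 CPM in Tissue-Input.

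Transcript length moved with the Dounce values over all genes. The median log2 fold change of Dounce-Input against Tissue-Input was -0.57 for genes whose longest transcript had at most 2254 bases, -0.02 for those up to 3403 bases, 0.18 for those up to 4832 bases, and 0.43 above that, in 4 bins of about equal size. In the papain-based suspension without inhibitors the same bins had medians of 0.09, 0.12, 0.04, and -0.0024. Of the 9 mural genes called lower in Dounce-Input, the 7 genes and both lists included, 5 were in the shortest bin (*Higd1b*, *Ndufa4l2*, *Cox4i2*, *Myl9*, and *Tpm2*). A further 3 were in the bin with a median of 0.18, namely *Rgs5* with a longest transcript of 4096 bases, *Slc6a20a* with 3894, and *Anpep* with 3797. *Synpo2*, with 9203 bases, was in the longest. Of the 6 called higher, 2 were in the bin up to 3403 bases (*Mcam* and *Pln*) and 4 in the next (*Tbx18*, *Atp13a5*, *Aoc3*, and *Cald1*). *Vtn* at 1744 bases, *Tagln* at 1595, *Foxs1* at 1311, and *Mustn1* at 1236 are in the shortest bin and were not called. *Foxs1* and *Mustn1* were named after their values were seen. The share of all genes called in each bin was not computed, so no departure from all genes is read from these counts. The part of transcript length in the values of these genes was not tested.

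**Figure D5:**
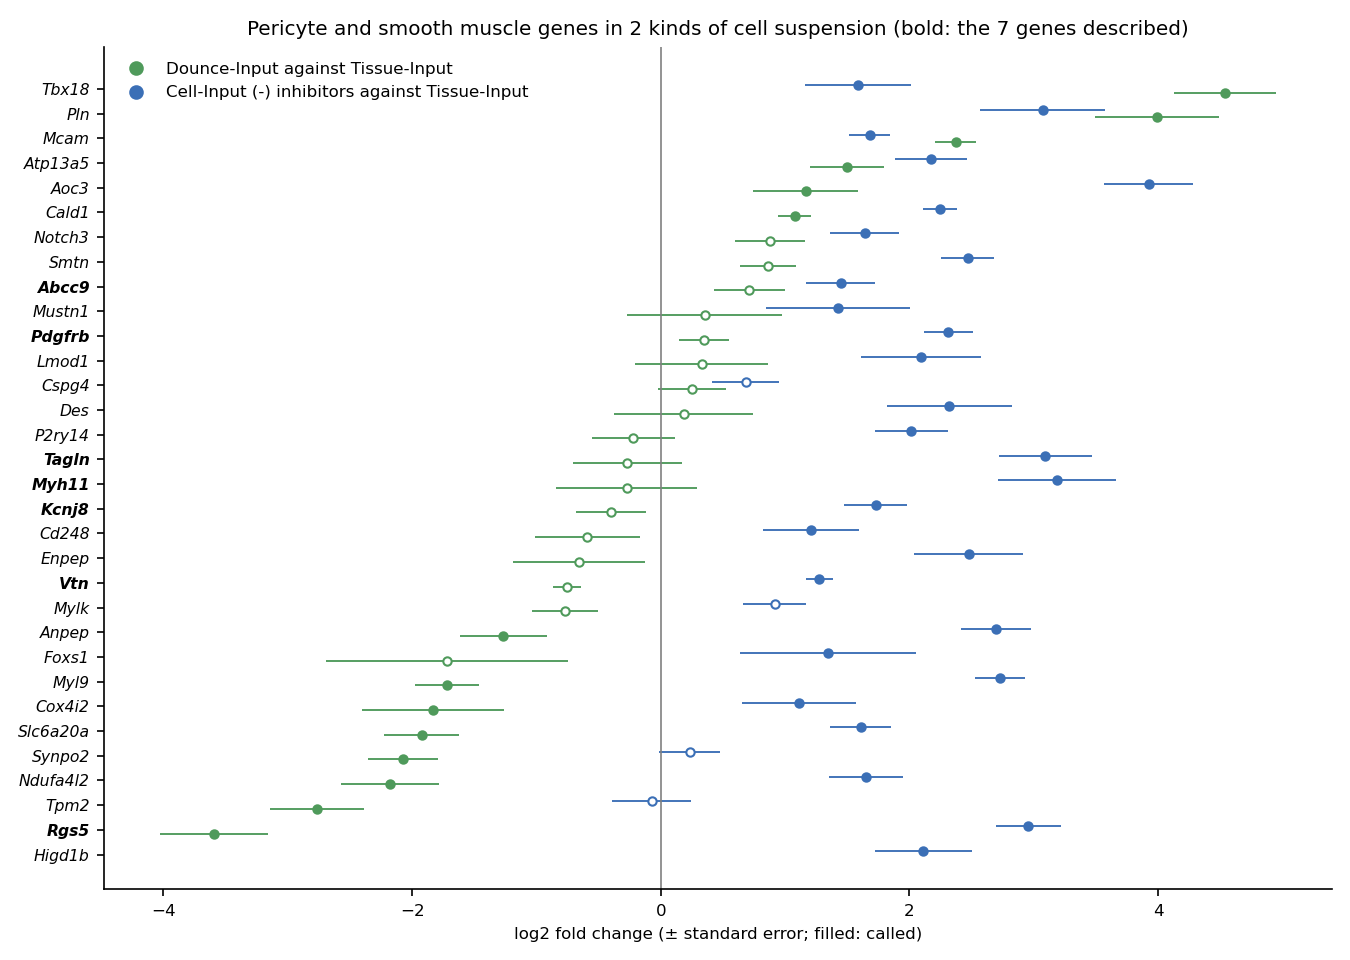
Log2 fold change against Tissue-Input of the 7 mural genes (bold) and of the other pericyte and smooth muscle genes tested, for Dounce-Input (green) and for the papain-based Cell-Input without inhibitors (blue), with the standard error as bars and filled points for called genes. Blue points lie mostly above 0 (*Rgs5* at 2.96), and green points spread to both sides, from *Rgs5* at -3.59 to *Tbx18* at 4.54. Points with a group at 3 counts or fewer in every library are left out.

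Against the papain-based suspension without inhibitors, 6 of the 7 genes were called lower in Dounce-Input, where 28.1% of all genes were. *Rgs5* fell by 6.55 ± 0.38, *Myh11* by 3.46 ± 0.50, *Tagln* by 3.36 ± 0.39, *Kcnj8* by 2.13 ± 0.27, *Vtn* by 2.03 ± 0.11, and *Pdgfrb* by 1.96 ± 0.20 on the log2 scale. *Abcc9* had -0.74 ± 0.27 (adjusted p = 0.0178) and did not pass the fold threshold. This comparison shares its Dounce-Input libraries with the one against tissue.

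In TRAP, Dounce libraries were the shallowest, and their mural counts were small. Against Tissue-TRAP, 4 of the 7 genes were called lower, where 27.1% of all genes were. *Rgs5* was counted 1, 0, 0, and 1 times in Dounce-TRAP and 121 to 147 times in Tissue-TRAP, and no fold is given. *Kcnj8* was counted 6, 5, 0, and 0 times against 30 to 50 (log2 fold change -2.26 ± 0.75). *Tagln* had -2.22 ± 0.61 and *Vtn* -1.88 ± 0.39, with *Vtn* at 39.6 CPM in replicate 3 and at 12.9 to 16 CPM in the others. *Abcc9* stood at 0.836, 7.36, 9.31, and 6.17 CPM against 4.83 to 8.09 CPM in Tissue-TRAP (-0.01 ± 0.44), and *Pdgfrb* had -0.31 ± 0.38. *Myh11* had -1.45 (adjusted p = 0.134) and was not called. It was called lower with the DESeq2 Wald test (-1.56, adjusted p = 0.0602) and limma (-1.83, adjusted p = 0.0593), and without replicate 2 of Dounce-TRAP (-2.36) or replicate 1 of Tissue-TRAP (-1.71). Against Cell-TRAP without inhibitors 4 genes were called lower, where 8.02% of all genes were. They were *Rgs5*, *Myh11* (-3.35 ± 0.79), *Tagln* (-2.92 ± 0.60), and *Vtn* (-1.22 ± 0.39). The *Vtn* call was lost without replicate 1 of Cell-TRAP (-0.84). Among all called genes in this comparison 72.1% were higher, and 58.6% with limma.

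Cell-TRAP without inhibitors differed from Tissue-TRAP in 2 of the 7 genes, *Myh11* called higher (1.90 ± 0.62), where 22.3% of all genes were, and *Kcnj8* called lower (-1.96 ± 0.64), where 30.8% were. *Kcnj8* had 15, 7, 21, and 2 counts in Cell-TRAP and 30 to 50 in Tissue-TRAP, and the groups did not overlap. *Rgs5* stood at 18.8, 18.1, 20.7, and 6.54 CPM in Cell-TRAP and at 13.4 to 14.5 CPM in Tissue-TRAP (0.24 ± 0.30, adjusted p = 0.475). Replicate 4 of Cell-TRAP was lowest for 6 of the 7 genes.

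TRAP against Input in the cell preparation comparison followed the same contrast of tissue and suspension. None of the 7 genes was called in Tissue, where 10.5% of all genes were, and at an unadjusted p under 0.05 there was 1 gene, *Rgs5*. It stood at 13.4 to 14.5 CPM in TRAP and 6.18 to 8.62 CPM in Input (log2 fold change 0.98 ± 0.29, adjusted p = 0.0129), and passed the fold threshold without replicate 1 (1.00) or replicate 4 (1.07). DESeq2 and limma called none. All 7 were called lower in TRAP of both papain-based suspensions, where 36.7% of all genes were without and 35.8% with inhibitors. The medians of the 7 were -2.40 and -2.20, against -0.42 and -0.40 for all genes. *Myh11* had the values nearest to 0, -1.42 ± 0.51 and -1.18 ± 0.51. Its call was lost when only the groups compared were in the fit, with log2 fold changes of -1.07 (adjusted p = 0.122) and -0.88 (adjusted p = 0.0409) without the replicate block, and of -0.99 (adjusted p = 0.00115) and -0.90 (adjusted p = 0.00444), both under the fold threshold, with it. Limma gave adjusted p = 0.125 and 0.166. Of all called genes 22.4% were higher without and 21.3% with inhibitors, and in these fits of the compared groups alone 37.9% and 33.8% without the block, and 38% and 33.8% with it.

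In Dounce, 3 of the 7 genes were called lower in TRAP than in Input, where 26.7% of all genes were. They were *Tagln* (-1.73 ± 0.68), *Vtn* (-1.42 ± 0.30), and *Kcnj8* (-1.30 ± 0.61). Of all called genes 43.8% were higher, and 30.4% with limma. The DESeq2 Wald test called 5 and limma 6. With only the Dounce libraries in the fit, 5 of the 7 genes were tested. *Kcnj8* was then not called without (adjusted p = 0.209) or with the replicate block (adjusted p = 0.226), and *Tagln* was called without (adjusted p = 0.0729) but not with the block (adjusted p = 0.174). Without replicate 4 only *Vtn* was called, with *Kcnj8* at -0.91 (adjusted p = 0.21) and *Tagln* at -1.17 (adjusted p = 0.185).

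The pattern of each gene was set against all others over the 20 groups of both comparisons, as Pearson's r of the group means of log2(CPM + 1), centred on Tissue-Input within each table, over 14299 genes. These points share depth, mice, and the large step from unsorted to sorted groups, so r is a description with no test. Between the 7 genes r ran from 0.702 for *Abcc9* and *Tagln* to 0.962 for *Pdgfrb* and *Vtn*. The genes most like *Tagln* were *Des*, which encodes the muscle filament desmin, *Vim*, and *Anxa2* (0.962, 0.962, and 0.953). Those most like *Kcnj8* were *Hey2*, a Notch target gene, *Rpe65*, and *Mybpc1* (0.988, 0.986, and 0.985). *Rgs5* was most like *Paqr5*, *Tm4sf1*, and *Grrp1* (0.986 each), *Pdgfrb* like *Elovl7*, 5930403L14Rik, and *Tgfbr3* (0.987, 0.986, and 0.985), and *Vtn* like the angiotensinogen gene *Agt*, *Nkd1*, and *Sdc2* (0.984, 0.982, and 0.982). *Abcc9* was most like *Hip1*, *Fgd6*, and *Syt10* (0.959, 0.956, and 0.95), and *Myh11* like *Tbx3*, *Foxf1*, and *Bcl6b* (0.972, 0.968, and 0.967).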

How the data were processed

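Brain RNA of Cx3cr1-NuTRAP mice was measured by stranded poly(A) RNA-seq in 48 libraries of the sort comparison and 32 of the cell preparation comparison. The authors aligned reads to mm10, removed duplicates, and listed a gene where each sample of some group had over 5 reads, in Strand NGS. The authors deposited raw expected counts, which are fractional, and log2 values normalized with DESeq2 and baselined to the Tissue-Input median. Another deposited table is an earlier version without Dounce and was an alternative here. The members and gene lists were chosen with earlier results of these data known.

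Expected counts were rounded to whole numbers and tested with edgeR's quasi-likelihood test (edgeR 4.0.16, R 4.3.3) with TMM scaling, for Input, for TRAP, and for both together, at a Benjamini-Hochberg adjusted p under 0.1 and a fold change above 2. Genes entered where each library of some group held over 5 counts. CPM values used TMM factors over all libraries of a comparison, and each fit used TMM factors over its own libraries. SE is the log2 fold change divided by the root of F. No fold is given where every library of a group held 3 counts or fewer. Counts and folds cover counting error and the spread between mice, and depth is given with the results. DESeq2 1.42.0 and limma 3.58.1 were alternatives, and fits were tested on simulated data. Levels per kilobase used the GENCODE exon union, and promoters and motifs were read from RefSeq sequence. The searched motifs, on both strands, were the CArG box, the MEF2 site, the TATA box, the RBPJ core, and the GC box, and none overlapped another in the promoters printed. By rule, genes outside the members were named as the called genes with the largest change, per list and comparison. The KATP genes of other cells were named whatever their change. Dounce-Input genes named after their values were seen are marked there.

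Same-numbered libraries of Tissue and Cell, of Input and TRAP, and of suspensions with and without inhibitors came from the same mouse by their titles, so a paired fit with the mouse as a replicate block was an alternative. The mean correlation of deviations within a mouse was -0.0275 for Tissue and Cell Input, 0.125 for Tissue and Cell TRAP, 0.0506 and 0.311 for inhibitor pairs in Input and TRAP, and 0.204, 0.391, and 0.171 for Input and TRAP of Tissue, Cell, and Dounce.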

Additional observations from a re-analysis of the deposited data

Results flagged for a closer look

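In groups of 4 or 5 libraries, 11 of 125 gene and group combinations held a library that stood apart from the rest by Dixon's test. Its rate of about 1 in 20 holds for independent, normally spread values. CPM values of genes in shared libraries are not such values, so no excess is read from this count. *Myh11* stood apart most often. It was high in replicate 2 of Cell-TRAP (22.12 CPM) and of Tissue-TRAP in the cell preparation comparison (5.724 CPM), in replicate 4 of Tyto-TRAP (2.596 CPM), and in replicate 4 of autoMACS-TRAP (5.289 CPM). Replicate 2 of Tissue and Cell is 1 mouse. *Rgs5* was high in replicate 4 of Tyto-TRAP (0.5466 CPM) and in replicate 3 of Cell-TRAP with inhibitors (29.73 CPM), and low in replicate 4 of Tissue-TRAP in the sort comparison (9.992 CPM). *Vtn* was high in replicate 3 of Dounce-TRAP (39.58 CPM) and replicate 1 of FACSAria-TRAP (11.48 CPM). *Pdgfrb* was high in replicate 4 of autoMACS-TRAP (2.86 CPM), and *Kcnj8* in replicate 3 of autoMACS-Input (1.739 CPM).

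The change from Input to TRAP differed between Cell and Tissue for all 7 genes in edgeR's interaction test. The log2 difference was -1.79 for *Pdgfrb*, -2.19 for *Rgs5*, -2.63 for *Kcnj8*, -2.25 for *Abcc9*, -1.65 for *Vtn*, -1.26 for *Tagln*, and -1.91 for *Myh11*, and the *Myh11* call depended on the mice kept and on the tool.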

How the results depend on the processing

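Counts of called genes held within 1.5 times under DESeq2's size factors, no filter on low counts, and the earlier table in the comparisons where they could be computed. For TRAP against Input in Dounce, 3 genes were called, against 5 with the DESeq2 Wald test, 6 with limma, and 1 to 4 with a mouse left out. With a library left out, the F test across sorts called 2 to 4 genes and TRAP against Input in Tissue of the cell preparation comparison 0 to 1. The paired fit with the replicate block changed calls only for *Myh11*, *Kcnj8*, and *Tagln* as given with those results, in part also without the block when only the groups compared were in the fit, and turned the sign of uncalled values of *Myh11* with against without inhibitors in Input (0.0862), *Myh11* TRAP against Input in Tissue of the cell preparation comparison (-0.173), and *Pdgfrb* with against without inhibitors in Input (-0.00946). With limma the same values were 0.128, -0.3, and -0.00835, and *Pdgfrb* in Cell-TRAP against Tissue-TRAP (-0.0174) and *Tagln* TRAP against Input in Tissue of the cell preparation comparison (-0.0101) also turned. Uncalled values turned sign with a library left out. For inhibitors in Input the ranges were -0.171 to 0.361 for *Abcc9*, -0.0257 to 0.293 for *Kcnj8*, -0.418 to 0.656 for *Myh11*, -0.176 to 0.183 for *Pdgfrb*, and -0.443 to 0.19 for *Tagln*. For inhibitors in TRAP they were -0.104 to 0.185 for *Abcc9*, -0.295 to 0.554 for *Myh11*, and -0.0345 to 0.59 for *Vtn*. For *Abcc9* they were -0.295 to 0.32 in Dounce-TRAP against Tissue-TRAP, -0.944 to 0.0316 in TRAP against Input of Dounce, and -0.444 to 0.193 in TRAP against Input over the sorts. For TRAP against Input in Tissue they were -0.205 to 0.00374 for *Pdgfrb* in the sort comparison, and -0.757 to 0.336 for *Myh11* and -0.139 to 0.176 for *Tagln* in the cell preparation comparison. For *Kcnj8* in Dounce-TRAP against Cell-TRAP the range was -1.04 to 0.234. The cause was not tested. With at least 10 counts required in every library only 2 or 3 of the 7 genes could be tested, and without TMM scaling 23 of 140 group means of CPM moved by more than 1 SD. Sorted TRAP and Dounce-TRAP libraries hold few mural counts, which limits *Kcnj8* and *Rgs5* there.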
